A study of Homo sapiens with 15 samples.

Results

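The genes described here are 43 genes of the cell cycle and of DNA replication, 18 that act in S phase and 25 that act in G2 and mitosis (G2/M), out of 33158 gene symbols with deposited values. They were chosen by symbol from a list of well-known proliferation genes, and all 43 had values high enough to be tested in every comparison. The study asked how cancer stem cells (CSCs) of triple negative breast cancer differ from the other cells of the same line. Cells of SUM149PT and HCC1937 were detached with trypsin, stained with CD24-PE and CD44-APC antibodies and sorted by FACS into CSCs (CD44+/CD24-/low) and the rest (non-CSCs). SUM159PT was not sorted, and total RNA of this line was treated as CSC RNA. Each of the 5 groups has 3 libraries of oligo(dT)-selected mRNA. All are established cell lines with 1 line of each kind, and for SUM159PT the line and the fraction cannot be told apart. Nothing in the labels says that replicates were separate cultures, so every p-value below measures the spread between these libraries.

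Cells pass through S phase, when DNA is copied, and then through G2 into mitosis, when chromosomes are separated. Textbook accounts place the S phase genes under E2F transcription factors, which the retinoblastoma proteins hold back. They place the G2/M genes under the MuvB complex with B-MYB and FOXM1, which act later and through a different promoter element, the cell cycle genes homology region (CHR).

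The S phase members and the G2/M members did not stand in the same proportion in the 5 groups. Levels are given in FPKM, a count of fragments scaled by transcript length and by sequencing depth, and the mean level of a phase is the mean of log2(FPKM + 0.1) over its members. In SUM149PT CSCs, the mean was 1.77 (SD 0.039 over 3 libraries) for S phase members and 3.07 (SD 0.017) for G2/M members. In SUM149PT non-CSCs, the same means were 2.30 (SD 0.015) and 2.68 (SD 0.076). The G2/M mean thus stood above the S phase mean in all 6 SUM149PT libraries, by 1.275 to 1.328 in CSCs and by 0.283 to 0.443 in non-CSCs, with no overlap between the fractions. Both means were higher in HCC1937, at 4.86 (SD 0.107) and 4.75 (SD 0.072) in CSCs and at 4.87 (SD 0.048) and 4.70 (SD 0.030) in non-CSCs. In that line the S phase mean was slightly above the G2/M mean in every library, and the fractions overlapped in both phases. In SUM159PT, the S phase mean was 3.53 (SD 0.025) and the G2/M mean 2.26 (SD 0.148), so the order of the phases was the reverse of that in SUM149PT. These are deposited levels, and differences between SUM159PT and SUM149PT CSCs went with the GC content of the transcripts, as given below. These samples are bulk RNA, in which fewer cells in a phase and less RNA per cell cannot be told apart.

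**Figure D1:**
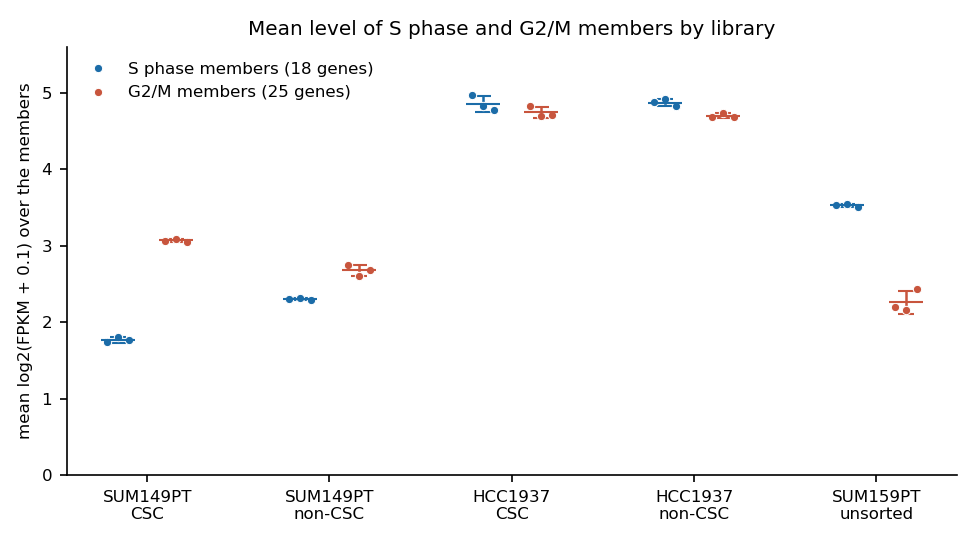
Mean log2(FPKM + 0.1) over the 18 S phase members (blue) and the 25 G2/M members (red) in each library (dots), with the group mean and SD (bars), by group. As deposited, the phases lie far apart in SUM149PT CSCs and in SUM159PT, in opposite order, and close together in HCC1937.

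The sorted fractions also differed in markers of cell type. CD24, 1 of the 2 markers of the gate, had a mean of 7.74 FPKM in CSCs and 139.5 FPKM in non-CSCs of SUM149PT, and of 23.4 and 150 FPKM in HCC1937. CD44 was at 84.4 FPKM in CSCs and 64.5 FPKM in non-CSCs of SUM149PT (adjusted p = 0.00168). In HCC1937 it was at 106.3 and 97.8 FPKM, with overlap, and was not called (log2 fold change 0.12, adjusted p = 0.314). Of 10 epithelial markers, 10 fell in the CSCs of each line (median log2 fold change -4.35 in SUM149PT and -2.20 in HCC1937). Of the mesenchymal markers, 9 of 10 rose in SUM149PT CSCs (1 fell, TWIST1) and 8 of 9 tested rose in HCC1937 CSCs. In SUM149PT, the epithelial markers summed to 155.1 to 161.7 FPKM in CSC libraries and 2438 to 2481 FPKM in non-CSC libraries, with KRT19 the most abundant. Mesenchymal markers, led by VIM, summed to 2752 to 2919 FPKM in SUM149PT CSCs and 512.3 to 583.1 FPKM in its non-CSCs. In HCC1937, the epithelial sums were 565.2 to 658.6 FPKM in CSCs and 1763 to 2024 FPKM in non-CSCs, and the mesenchymal sums were 1065 to 1234 and 191.3 to 270.2 FPKM. No marker of either list was at 0 in all libraries of a group. The part of these cell states in the levels of the cell cycle genes was not tested.

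In SUM149PT, most G2/M members were higher in CSCs, while the S phase members were divided between lower ones and ones that were not called. Of the 18 S phase members, 9 fell (41.5% of all 16037 genes tested fell), 1 rose (33.3% of all genes rose) and 8 were not called at an adjusted p of 0.05, so the share that fell was not far from that of all genes. Of the 18 estimates, 12 were negative and 6 positive. Of the 25 G2/M members, 19 rose, 4 fell and 2 were not called. The median log2 fold change was -0.44 for the S phase members and 0.49 for the G2/M members, where the median of all genes was -0.11. Among S phase members the E2F genes fell furthest, and the helicase subunits MCM2 and MCM4 and the replication clamp PCNA came next, while the securin gene PTTG1 and the cyclin gene CCNB2 rose most. The paper sets limits on the false discovery rate and on an enrichment score, read here as an adjusted p no higher than 0.0001 with a log2 fold change of 1 or more in either direction. At these cutoffs, which 20.5% of all genes passed, 3 S phase members fell, 3 G2/M members rose and 1 G2/M member fell.

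**Figure D2:**
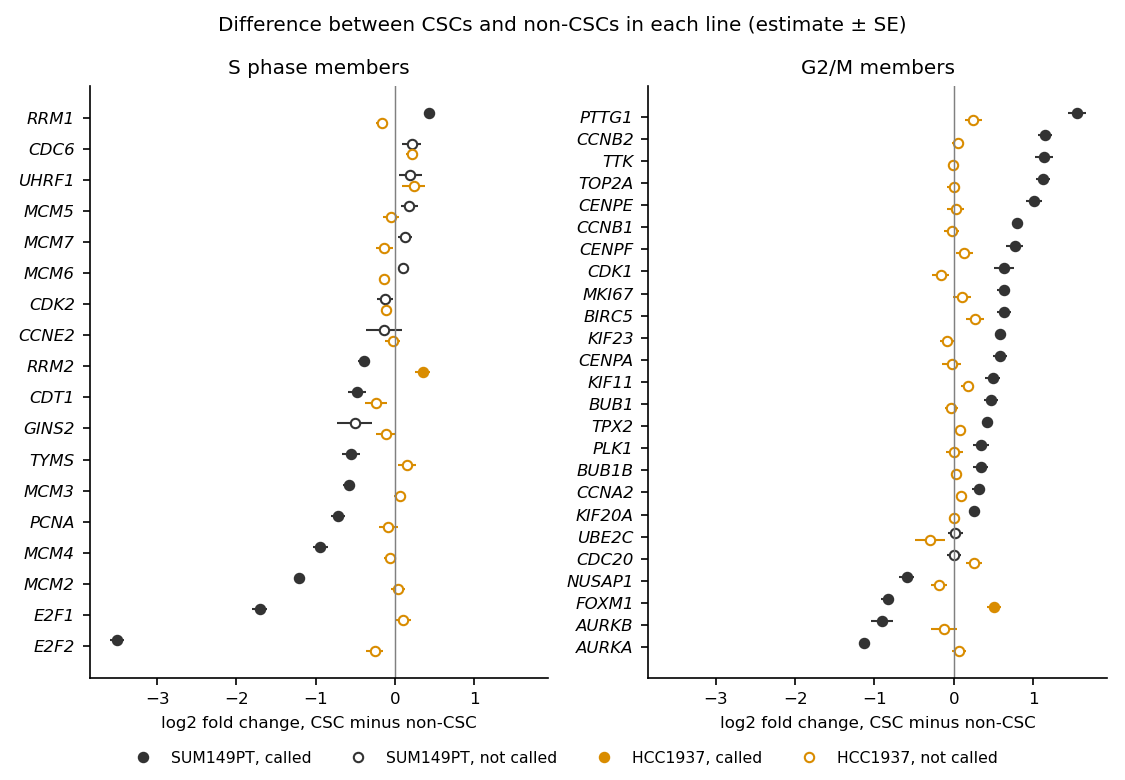
Log2 fold change of each member, CSCs minus non-CSCs (x axis), in SUM149PT (black) and HCC1937 (orange), with S phase members on the left and G2/M members on the right; bars show the SE and filled symbols are called at an adjusted p of 0.05. In SUM149PT most G2/M symbols lie above 0 and 12 of 18 S phase symbols below it, whereas HCC1937 symbols lie closer to 0.

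E2F2, an activator of S phase genes, was at 0.139, 0.129 and 0.163 FPKM in the CSC libraries and at 2.60, 2.53 and 2.87 FPKM in the non-CSC libraries of SUM149PT. Its CSC levels were close to nothing and far below every non-CSC level (log2 fold change -3.51, SE 0.083, adjusted p = 2.23e-06). At such low values the added 0.1 FPKM makes the fold change smaller than the ratio of the levels. E2F1, the founding member of the family, was at 0.754, 0.592 and 0.673 FPKM in CSCs and at 2.27, 2.43 and 2.54 FPKM in non-CSCs. It too was low in CSCs, without overlap (log2 fold change -1.71, SE 0.096, adjusted p = 2.71e-05). The promoters of both genes, and that of MCM2, are shown here because these 3 members fell furthest among the S phase genes and E2F sites are the textbook element of that phase. Each line gives 300 bases, from 250 before to 50 after the start of a RefSeq transcript on build GRCh38.p14, read along the strand of the gene, with matched motifs in capitals. The windows are chr20:33686336-33686635 (minus strand) for E2F1, chr1:23531184-23531483 (minus strand) for E2F2 and chr3:127598161-127598460 (plus strand) for MCM2.
E2F1: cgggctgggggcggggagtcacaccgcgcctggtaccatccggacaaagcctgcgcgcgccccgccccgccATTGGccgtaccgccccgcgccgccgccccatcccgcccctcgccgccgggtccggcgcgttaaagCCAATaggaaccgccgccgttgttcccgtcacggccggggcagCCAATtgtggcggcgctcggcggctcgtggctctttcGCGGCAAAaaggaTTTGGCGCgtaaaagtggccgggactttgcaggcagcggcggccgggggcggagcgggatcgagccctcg
E2F2: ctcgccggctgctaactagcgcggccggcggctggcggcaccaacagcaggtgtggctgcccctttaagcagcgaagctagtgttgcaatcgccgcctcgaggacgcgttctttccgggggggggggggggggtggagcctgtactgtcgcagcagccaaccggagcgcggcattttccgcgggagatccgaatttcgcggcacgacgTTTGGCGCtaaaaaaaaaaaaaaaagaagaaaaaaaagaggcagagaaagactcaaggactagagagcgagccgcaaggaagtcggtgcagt
MCM2: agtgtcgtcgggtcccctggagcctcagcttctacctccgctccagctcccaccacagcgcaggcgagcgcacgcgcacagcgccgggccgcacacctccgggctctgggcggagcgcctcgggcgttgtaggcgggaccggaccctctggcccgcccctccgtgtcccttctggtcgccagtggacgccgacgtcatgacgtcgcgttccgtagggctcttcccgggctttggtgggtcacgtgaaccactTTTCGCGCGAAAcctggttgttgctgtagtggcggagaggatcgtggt
The E2F words searched on both strands were TTTGGCGC, TTTCCCGC, TTTGCCGC and TTTCGCGC, beside CCAAT and the CHR words TTTGAA and TTCGAA. E2F1 has 2 E2F words and 3 CCAAT boxes, E2F2 has 1 E2F word, and MCM2 has 2 overlapping copies of TTTCGCGC. A match is a description of the sequence, not a site in use or a cause.

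The replication fork genes followed the E2F genes only in part. MCM2 was at 4.23, 3.96 and 4.06 FPKM in CSCs and at 9.62, 9.29 and 9.95 FPKM in non-CSCs of SUM149PT. Every CSC value was far below every non-CSC value (log2 fold change -1.22, SE 0.058, adjusted p = 1.49e-05). MCM4, another subunit of the helicase, was at 3.37, 3.10 and 3.23 FPKM in CSCs and at 6.60, 6.75 and 5.6 FPKM in non-CSCs. It was lower in CSCs without overlap (log2 fold change -0.94, SE 0.090, adjusted p = 0.000216). MCM3 fell less (log2 fold change -0.58, adjusted p = 0.0007). The other subunits MCM5, MCM6 and MCM7 were not called, with log2 fold changes of 0.18, 0.10 and 0.13. Hence, of the 6 subunits, which assemble into 1 ring, 3 fell and 3 were not called. PCNA was at 17.7, 21.8 and 18.3 FPKM in CSCs and at 32.0, 32.1 and 30.9 FPKM in non-CSCs. Its CSC levels were lower in every library (log2 fold change -0.72, SE 0.093, adjusted p = 0.000776).

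Genes that make nucleotides split. TYMS, which makes thymidylate, fell in SUM149PT CSCs (log2 fold change -0.56, SE 0.113, adjusted p = 0.00527), and RRM2, the regulated subunit of ribonucleotide reductase, fell by less (log2 fold change -0.39, SE 0.075, adjusted p = 0.00418). RRM1, the large subunit of the same enzyme, was at 9.99, 10.2 and 10.45 FPKM in CSCs and at 7.78, 7.95 and 6.93 FPKM in non-CSCs. It was the 1 S phase member that rose (log2 fold change 0.43, SE 0.072, adjusted p = 0.00232). CDT1, which loads the helicase, fell (log2 fold change -0.48, adjusted p = 0.00885), whereas its partner CDC6 had a log2 fold change of 0.21 and was not called. GINS2, part of the active helicase, had a log2 fold change of -0.51 (adjusted p = 0.0808). CCNE2, the cyclin of S phase entry, was at 0.829, 0.899 and 1.04 FPKM in CSCs and at 0.886, 1.47 and 0.812 FPKM in non-CSCs. These low values overlapped, and the difference was not called (log2 fold change -0.14, adjusted p = 0.598).

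The G2/M members that rose most in SUM149PT CSCs were PTTG1, CCNB2, TTK and TOP2A. PTTG1, the securin gene, was at 59.6, 70.8 and 68.7 FPKM in CSCs and at 24.9, 19.9 and 22.8 FPKM in non-CSCs. Its CSC values were higher by more than 2 to 1 in every library (log2 fold change 1.56, SE 0.113, adjusted p = 7.16e-05). CCNB2, a mitotic cyclin, was at 12.96, 15.5 and 12.95 FPKM in CSCs and at 6.38, 5.99 and 6.09 FPKM in non-CSCs. Its values were higher in CSCs without overlap (log2 fold change 1.15, SE 0.089, adjusted p = 9.36e-05). TTK, a kinase of the spindle checkpoint, was at 7.99, 7.27 and 7.01 FPKM in CSCs and at 3.67, 2.86 and 3.45 FPKM in non-CSCs. CSCs were again higher in every library (log2 fold change 1.14, SE 0.111, adjusted p = 0.000234). TOP2A, the topoisomerase that untangles chromosomes, was at 20.1, 19.8 and 20.4 FPKM in CSCs and at 9.73, 8.17 and 9.65 FPKM in non-CSCs. It was high in CSCs and lower in all non-CSC libraries (log2 fold change 1.13, SE 0.084, adjusted p = 7.97e-05). The promoters of PTTG1, CCNB2 and TOP2A, drawn in the same way, are shown because these 3 members rose past the cutoffs read from the paper. Their windows are chr5:160421605-160421904 (plus strand), chr15:59104896-59105195 (plus strand) and chr17:40417847-40418146 (minus strand).
PTTG1: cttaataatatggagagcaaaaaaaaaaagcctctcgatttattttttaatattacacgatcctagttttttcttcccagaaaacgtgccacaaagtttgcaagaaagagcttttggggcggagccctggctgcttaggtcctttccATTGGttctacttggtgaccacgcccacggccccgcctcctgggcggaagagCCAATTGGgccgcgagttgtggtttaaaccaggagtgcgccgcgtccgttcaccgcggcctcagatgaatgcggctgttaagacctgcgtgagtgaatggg
CCNB2: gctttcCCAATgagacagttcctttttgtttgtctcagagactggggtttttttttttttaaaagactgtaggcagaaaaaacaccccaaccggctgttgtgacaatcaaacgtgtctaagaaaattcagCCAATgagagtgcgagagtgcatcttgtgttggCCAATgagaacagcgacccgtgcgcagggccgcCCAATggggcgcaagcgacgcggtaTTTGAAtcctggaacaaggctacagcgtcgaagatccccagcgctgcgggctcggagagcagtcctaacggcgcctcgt
TOP2A: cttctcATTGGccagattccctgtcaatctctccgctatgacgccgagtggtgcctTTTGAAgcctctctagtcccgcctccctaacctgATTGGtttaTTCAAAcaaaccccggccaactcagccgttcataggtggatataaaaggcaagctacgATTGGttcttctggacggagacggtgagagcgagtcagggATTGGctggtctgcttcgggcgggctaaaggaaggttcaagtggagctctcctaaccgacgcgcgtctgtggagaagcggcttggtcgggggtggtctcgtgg
PTTG1 has 3 CCAAT boxes, CCNB2 has 4 CCAAT boxes and 1 TTTGAA, and TOP2A has 4 CCAAT boxes and 2 TTTGAA, counting both strands. None of the 3 windows has an E2F word of the kind found in the S phase promoters above.

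Other mitotic genes rose by less. CCNB1, the main mitotic cyclin, was at 20.04, 20.03 and 19.1 FPKM in CSCs and at 11.48, 10.5 and 11.9 FPKM in non-CSCs of SUM149PT. It was higher in all CSC libraries (log2 fold change 0.80, SE 0.067, adjusted p = 0.000128). CDK1, the kinase it activates, was at 9.24, 9.62 and 9.85 FPKM in CSCs and at 7.25, 5.23 and 6.05 FPKM in non-CSCs. The groups did not overlap (log2 fold change 0.64, SE 0.124, adjusted p = 0.00463). MKI67, the common marker of cycling cells, was at 5.38, 4.61 and 5.23 FPKM in CSCs and at 3.28, 3.05 and 3.37 FPKM in non-CSCs. It was also higher in CSCs (log2 fold change 0.63, SE 0.082, adjusted p = 0.000783). The kinetochore genes CENPE, CENPF and CENPA rose, with log2 fold changes of 1.01, 0.77 and 0.58, as did the mitotic motor genes KIF23 (0.59) and KIF11 (0.49).

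Against this direction, 4 G2/M members fell in SUM149PT CSCs. AURKA, the kinase of the spindle poles, was at 5.87, 5.41 and 6.002 FPKM in CSCs and at 12.6, 13 and 12.8 FPKM in non-CSCs. Its CSC values were far below all non-CSC values (log2 fold change -1.14, SE 0.062, adjusted p = 2.44e-05). FOXM1, the transcription factor of the G2/M genes, was at 2.58, 2.79 and 2.42 FPKM in CSCs and at 4.93, 4.40 and 4.78 FPKM in non-CSCs. It was low in CSCs without overlap (log2 fold change -0.83, adjusted p = 0.000216). AURKB, the kinase of the centromere, fell (log2 fold change -0.91, adjusted p = 0.00162), and so did NUSAP1, a spindle protein gene (log2 fold change -0.59, adjusted p = 0.00233). Thus FOXM1 and both Aurora kinases were lower in the fraction where most of the chosen G2/M members were higher. CDC20 and UBE2C, which target mitotic proteins for destruction, were not called, with log2 fold changes of 0.0006 and 0.02.

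Among the 43 members, the SUM149PT fold change fell with the GC content of the transcript (Spearman rho -0.558, n = 43 genes; -0.222 for the 18 S phase members and -0.577 for the 25 G2/M members). Over all genes the same rho was -0.135 (n = 13437). Genes are not independent of one another, so these are descriptions. The GC trend was then removed from each library, over only the 13437 genes with a known GC content. In that setting the S phase members gave 4 higher and 8 lower and the G2/M members 19 higher and 4 lower. Of the 13437 genes, 5329 were higher and 5341 lower, so the S phase share that was lower stayed near that of all genes. Under quantile normalization, the median of all genes moved from -0.11 to 0.10 and the share of calls that were higher from 44.6% to 54.9%. The S phase members then gave 5 higher and 9 lower, with the G2/M counts unchanged, beside 6643 higher and 5466 lower of 16037 genes.

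Sequence around the start sites differed between the phases. Promoters were matched for 33 of the 43 members, 14 of S phase and 19 of G2/M. A CHR word was found in 13 of the 19 G2/M promoters (68.4%) and in 2 of the 14 S phase promoters (14.3%), where 16.6% of 27305 promoters have one. E2F words showed the opposite division, with 12 of 14 S phase promoters (85.7%) and 3 of 19 G2/M promoters (15.8%), against 3.33% of all promoters. CCAAT was common to both, in 10 S phase (71.4%) and 17 G2/M promoters (89.5%), against 35.7% of all promoters.

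Genes of the same phases outside the 43 were also counted in SUM149PT, where 33.3% of all genes rose and 41.5% fell. Of 42 other S phase genes, 25 fell and 4 rose in CSCs (median log2 fold change -0.43). The largest changes were in POLD3 and POLE2, polymerase subunits, and GINS4, a partner of GINS2, with log2 fold changes of -1.55, -1.42 and -1.34 (adjusted p = 2.45e-05, 0.00101 and 4.86e-05). Of 49 other G2/M genes tested, 18 rose and 14 fell (median 0.19). The share that rose was near that of all genes, and the share that fell was smaller. CENPU, a centromere gene, fell by 1.48 (adjusted p = 4.82e-05), whereas WEE1, the kinase that restrains CDK1, rose by 1.25 (adjusted p = 3.1e-05) and KIF15, a spindle motor, by 1.12 (adjusted p = 0.00113). Replication-dependent histone genes gave 16 lower and 4 higher of 46 tested (median -0.74), a smaller share in each direction than over all genes. Their summed level was 78.3 to 94.0 FPKM in CSCs and 130.8 to 161.4 FPKM in non-CSCs, with HIST3H2A the most abundant. Of 75 listed histone genes, only 11 had a mean above 1 FPKM in SUM149PT CSCs and 20 in its non-CSCs. There were 27 and 28 in those of HCC1937 and 11 in SUM159PT. How well oligo(dT) selection captured histone mRNAs was not tested, so their counts and sums are no measure of S phase. Of 12 stress response genes, 6 fell and 4 rose, and their sum was 2475 to 2592 FPKM in CSCs and 2771 to 2904 FPKM in non-CSCs. Within this sum, single genes moved far in opposite directions, from HSPA1A (log2 fold change -4.01, means of 10.1 and 174.6 FPKM) and HSPA1B (-2.14) to EGR1 (1.18).

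Of 23 regulators tested in SUM149PT (retinoblastoma and E2F families, MuvB and B-MYB, inhibitors of cyclin-dependent kinases, and kinases of G1), 10 were higher and 9 lower, beside 33.3% and 41.5% of all genes, and some changed strongly. E2F7, a repressor of E2F targets, was at 23.4, 22.75 and 23.0 FPKM in CSCs and at 3.30, 3.50 and 4.13 FPKM in non-CSCs. It was high in CSCs and low in every non-CSC library (log2 fold change 2.64, adjusted p = 5.96e-06). E2F8, its closest relative, was at 0.165, 0.181 and 0.153 FPKM in CSCs and at 1.54, 1.35 and 1.41 FPKM in non-CSCs. It went the other way and was low in CSCs (log2 fold change -2.52, adjusted p = 3.67e-06). In HCC1937, E2F8 was too low to be tested, with means of 0.0375 and 0.0361 FPKM. RB1, the retinoblastoma gene, was at 8.99, 8.26 and 8.73 FPKM in CSCs and at 2.57, 2.06 and 2.85 FPKM in non-CSCs. Its CSC values were higher without overlap (log2 fold change 1.77, adjusted p = 6.26e-05). Its relative RBL1 fell (log2 fold change -1.10, adjusted p = 0.00016). RBL2 was higher by 0.23 (adjusted p = 0.0232), a call lost when any of 4 libraries was left out (adjusted p up to 0.0821) and in 1 of 13 other settings. Those were CSC replicates 2 and 3 and non-CSC replicates 2 and 3.

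Among the inhibitors of cyclin-dependent kinases, CDKN2C was at 6.53, 5.84 and 6.34 FPKM in CSCs and at 2.06, 2.19 and 2.85 FPKM in non-CSCs of SUM149PT. It was higher in CSCs in all libraries (log2 fold change 1.37, adjusted p = 0.000218). CDKN1B fell (log2 fold change -0.57, adjusted p = 0.00153). CDKN2D fell by 0.38 (adjusted p = 0.017), but the adjusted p was 0.0544 without non-CSC replicate 1 and 0.482 with the GC trend removed. CDKN1A, the p21 gene, was at 196.2, 229.2 and 212.5 FPKM in CSCs and at 215.2, 205.1 and 203.2 FPKM in non-CSCs. These values overlapped (log2 fold change 0.03, adjusted p = 0.73), although with the GC trend removed it was called higher (log2 fold change 0.32, adjusted p = 0.00337). CDKN1C was listed at 0 in all 15 libraries, and CDKN2B was near 0 in SUM149PT.

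In HCC1937, few members differed between the fractions by the test, and the estimates were small. RRM2 was the 1 S phase member of 18 that rose in CSCs and FOXM1 the 1 G2/M member of 25 that rose (10.3% of 15582 genes rose). No member of either phase fell (15.3% of all genes fell). At an unadjusted p below 0.05 in limma the count was 2 higher and 0 lower in each phase. At that limit 2508 of all 15582 genes were higher and 3378 lower. The fold changes ran from -0.26 to 0.35 for S phase members and from -0.30 to 0.50 for G2/M members, with medians of -0.06 and 0.02 and a median of -0.03 over all genes. At the cutoffs read from the paper 0 members passed, where 0% of all genes did; the smallest adjusted p among the listed genes was 0.000128 (CD24), over the limit. With the GC trend removed, 4 S phase members were called higher, beside 2029 of 13033 genes. With quantile normalization, 4 G2/M members were called higher, beside 2388 of 15582 genes. No member was called lower in any setting.

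RRM2 was at 28.7, 23.2 and 25.1 FPKM in CSCs and at 19.6, 20.7 and 19.7 FPKM in non-CSCs of HCC1937. It was higher in CSCs without overlap (log2 fold change 0.35, SE 0.096, adjusted p = 0.0472). This call was lost in 5 of 6 fits with 1 library left out, all but the fit without CSC replicate 2 (adjusted p 0.0457 to 0.136), and in 3 of 13 other settings (up to 0.106). FOXM1 was at 39.9, 35.7 and 34.9 FPKM in CSCs and at 24.4, 25.4 and 28.0 FPKM in non-CSCs. It was higher in every CSC library (log2 fold change 0.50, SE 0.091, adjusted p = 0.0118). This call stayed in every fit with 1 library left out (adjusted p 0.0205 to 0.0491) and was lost in 1 of 13 other settings. FOXM1 was thus called lower in SUM149PT CSCs and, less firmly, higher in HCC1937 CSCs, and the difference between the effects was -1.34 (adjusted p = 6.73e-06).

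The members with the next largest differences in HCC1937 were not called in the fit described so far. E2F2 was at 4.43, 3.57 and 3.89 FPKM in CSCs and at 5.02, 4.29 and 4.96 FPKM in non-CSCs (log2 fold change -0.26, adjusted p = 0.153). These values overlapped, unlike those of SUM149PT. CDT1 was at 25.5, 21.7 and 18.4 FPKM in CSCs and at 24.4, 28.5 and 24.3 FPKM in non-CSCs (log2 fold change -0.24, adjusted p = 0.277). UHRF1, which keeps DNA methylation through replication, was at 12.3, 9.08 and 9.16 FPKM in CSCs and at 8.53, 9.24 and 7.91 FPKM in non-CSCs (log2 fold change 0.24, adjusted p = 0.294). The fractions overlapped for both. UBE2C was at 41.4, 28.8 and 27.6 FPKM in CSCs and at 37.05, 45.8 and 36.5 FPKM in non-CSCs (log2 fold change -0.30, adjusted p = 0.301). BIRC5, the survivin gene, was at 27.8, 22.2 and 23.4 FPKM in CSCs and at 21.6, 20.3 and 18.6 FPKM in non-CSCs (log2 fold change 0.27, adjusted p = 0.146). CDC20 was at 94.5, 82.5 and 78.4 FPKM in CSCs and at 74.2, 74.2 and 65.1 FPKM in non-CSCs (log2 fold change 0.26, unadjusted p = 0.0491). BIRC5 and CDC20 were a little higher in CSCs without overlap, whereas UBE2C overlapped. Of 13 other settings, CDC20 was called higher in 5, BIRC5 in 4 and UHRF1 in 1.

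The main markers of cycling cells were not called in HCC1937. MKI67 was at 26.5, 29.7 and 30.6 FPKM in CSCs and at 24.8, 25.4 and 30.7 FPKM in non-CSCs (log2 fold change 0.11, adjusted p = 0.541). TOP2A was at 57.1, 57.4 and 64.1 FPKM in CSCs and at 56.1, 60.7 and 61.6 FPKM in non-CSCs (log2 fold change 0.0009, adjusted p = 0.995). PCNA was at 184.1, 160.2 and 146.3 FPKM in CSCs and at 178.3, 185.6 and 155.2 FPKM in non-CSCs (log2 fold change -0.08, adjusted p = 0.654). All 3 genes overlapped between fractions and were abundant in both. The same was true of CDK1 (log2 fold change -0.16, adjusted p = 0.335), CCNB1 (-0.03, adjusted p = 0.863), MCM2 (0.04, adjusted p = 0.79), E2F1 (0.10, adjusted p = 0.52; called higher in 1 of 13 other settings) and CCNE2 (-0.03, adjusted p = 0.865). These small differences took the opposite sign under some scalings for CCNB1, CCNE2 and PCNA. With TPM scaling the median of all genes moved from -0.03 to 0.09 and the share of calls that were higher from 40.3% to 54.3% (53% with quantile normalization).

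Few other cell cycle genes of HCC1937 were called, where 10.3% of all genes rose and 15.3% fell. Of 42 other S phase genes, 1 rose (RFC3, a clamp loader subunit, log2 fold change 0.27, adjusted p = 0.0309) and none fell, with 5 higher and 1 lower at an unadjusted p below 0.05 in limma. The RFC3 call was lost in each of the 6 fits with 1 library left out (adjusted p 0.0625 to 0.0914) and in 1 of 13 other settings. Of 50 other G2/M genes, 3 rose and 1 fell, and 39 of the 50 estimates were positive (median 0.09). At an unadjusted p below 0.05 in limma, 9 of these were higher and 2 lower. Of all 15582 genes, 2508 were higher and 3378 lower at that unadjusted limit. CDC25B, the phosphatase that activates CDK1, was at 76.8, 61.1 and 61.9 FPKM in CSCs and at 38.5, 46.7 and 43.4 FPKM in non-CSCs. It was higher in all CSC libraries (log2 fold change 0.63, adjusted p = 0.0166), with an adjusted p of 0.0575 without non-CSC replicate 1 and 0.0512 without non-CSC replicate 3, and the call was also lost in 1 of 13 other settings. WEE1 fell by 0.33 (adjusted p = 0.0158), the reverse of its rise in SUM149PT (difference 1.59). Its HCC1937 call was not examined in other settings or with a library left out. The largest changes that were not called were in ESPL1 (log2 fold change 0.37, adjusted p = 0.0634) and ASPM (0.36, adjusted p = 0.115), and among other S phase genes in POLD2 (0.29, adjusted p = 0.11) and POLA2 (0.25, adjusted p = 0.0888). Of 13 other settings, ESPL1 and POLA2 were each called higher in 8, POLD2 in 6 and ASPM in 2. Histone genes gave 1 higher and 3 lower of 56 tested. Stress response genes gave 1 higher and 5 lower of 12, with sums of 1088 to 1236 FPKM in CSCs and 1219 to 1367 FPKM in non-CSCs.

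Regulators of HCC1937 gave 3 higher and 3 lower of 23, where 10.3% of all genes rose and 15.3% fell. RBL2, the retinoblastoma relative of resting cells, was at 21.9, 22.3 and 21.9 FPKM in CSCs and at 33.8, 31.6 and 32.7 FPKM in non-CSCs. Its values were lower in every CSC library (log2 fold change -0.57, adjusted p = 0.00202). CDKN2B, near 0 in the other lines, had means of 17.4 FPKM in CSCs and 24.9 FPKM in non-CSCs (log2 fold change -0.51, adjusted p = 0.00553). CDKN1A was at 37.6, 33.7 and 29.4 FPKM in CSCs and at 48.7, 46.3 and 47.1 FPKM in non-CSCs. It was lower in all CSC libraries (log2 fold change -0.50, adjusted p = 0.0192), a call lost when CSC replicate 2 or any non-CSC replicate was left out (up to 0.0715). E2F7 (log2 fold change 0.67, adjusted p = 0.0281), RB1 (0.30, adjusted p = 0.0385) and CDK4 (0.31, adjusted p = 0.0421) rose. The E2F7 call was lost in 4 of 6 fits with 1 library left out (up to 0.0842) and in 1 of 13 other settings. The RB1 call was lost in 5 of 6 (up to 0.129) and in 3 of 13 other settings (up to 0.0732). The CDK4 call was not examined in these fits. CDKN2C (0.52, adjusted p = 0.137), CDKN2D (-0.44, adjusted p = 0.0793), CDKN1B (-0.15, adjusted p = 0.288) and RBL1 (0.16, adjusted p = 0.128) were not called. CDKN2D was called lower in 6 of 13 other settings and without CSC replicate 1 (adjusted p = 0.0261), CDKN2C higher in 2 of 13 and RBL1 higher in 1 of 13.

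Whether the effect of the CSC fraction differed between the lines was tested as the interaction of line and fraction over the 12 sorted libraries. The difference is the SUM149PT effect minus the HCC1937 effect. It was higher for 15 and lower for 4 of the 25 G2/M members, and higher for 2 and lower for 8 of the 18 S phase members (28.1% of 16451 genes were higher and 33% lower). Both directions together, the S phase members were called no more often than all genes. Medians were 0.36 for G2/M members, -0.32 for S phase members and -0.08 for all genes, the last of which moved to 0.06 with quantile normalization. The largest S phase differences were in E2F2 (-3.25, adjusted p = 5.97e-08), E2F1 (-1.80, adjusted p = 2.49e-06) and MCM2 (-1.26, adjusted p = 3.05e-06). In G2/M they were in FOXM1, PTTG1 (1.31, adjusted p = 6.44e-05) and AURKA (-1.20, adjusted p = 5.08e-06). The differences for RRM1 (0.60) and MCM6 (0.25) were the 2 S phase ones that were higher. Of the other S phase genes, 3 were higher and 21 lower of 42, of the other G2/M genes 14 and 13 of 49, and of the regulators 8 and 7 of 24. This test shares its libraries with the comparisons within each line.

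**Figure D3:**
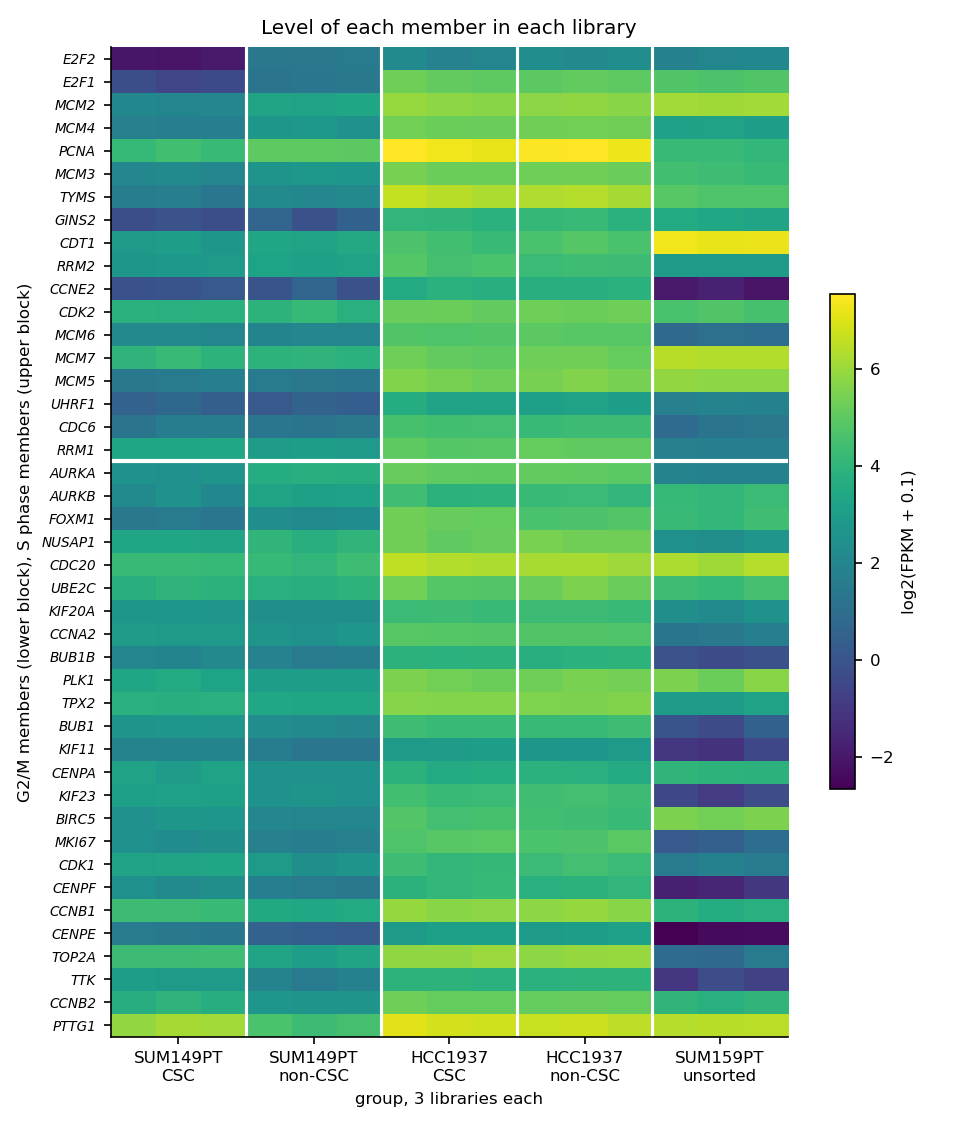
Level of each member (log2(FPKM + 0.1), color) in each of the 15 libraries, with S phase members above and G2/M members below the white line, ordered within each phase by their SUM149PT fold change. Columns are grouped by line and fraction, 3 libraries each; Every gene is brighter in HCC1937 than in SUM149PT, and the darkest cells are those of CENPE in SUM159PT.

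The largest difference between the sorted lines was in level. All 18 S phase members and all 25 G2/M members were higher in HCC1937 than in SUM149PT, averaged over both fractions (46.6% of 16451 genes were higher and 36% lower). No member was lower, also at an unadjusted p below 0.05 in limma, where 7746 of 16451 genes were higher and 5970 lower. For each of the 43 genes the lowest of 6 HCC1937 libraries was above the highest of 6 SUM149PT libraries. The share of all genes that separate in this way was not counted, so how unusual this is cannot be given. The median log2 difference was 2.84 for S phase members and 1.93 for G2/M members, against 0.16 for all genes (0.03 with upper quartile scaling). Of the other lists, epithelial markers gave 8 higher and 2 lower of 10, mesenchymal markers 3 higher and 7 lower of 10, and stress response genes 0 higher and 10 lower of 12 (median -1.35; 0 higher also at an unadjusted p below 0.05 in limma). These libraries are the same as those of the comparisons above.

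In S phase, the largest differences between HCC1937 and SUM149PT were in E2F1, TYMS and MCM5. E2F1 was at 38.9, 33.6 and 31.7 FPKM in HCC1937 CSCs and at 31.2, 34.1 and 31.8 FPKM in its non-CSCs, where no SUM149PT library passed 2.54 FPKM (log2 difference 4.59, SE 0.069, adjusted p = 5.08e-12). TYMS was at 98.8, 86.0 and 77.5 FPKM in HCC1937 CSCs and at 80.02, 83.4 and 72.3 FPKM in its non-CSCs, and at most at 4.53 FPKM in SUM149PT (log2 difference 4.52, SE 0.082, adjusted p = 1.53e-11). MCM5 was at 48.1, 43.7 and 38.7 FPKM in HCC1937 CSCs and at 43.65, 47.95 and 43.6 FPKM in its non-CSCs, and at most at 3.26 FPKM in SUM149PT (log2 difference 3.99, SE 0.074, adjusted p = 1.72e-11). All 3 genes were high in every HCC1937 library and low in every SUM149PT library, with mean ratios of 21.8, 23.2 and 16.4. CCNE2 was 13.5 times and PCNA 6.61 times as high in HCC1937. The smallest S phase difference was that of MCM7 (log2 difference 1.22).

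The G2/M members differed by less than the S phase members, by the medians above. FOXM1 (log2 difference 3.11, SE 0.059, adjusted p = 2.03e-11), MKI67 (2.75, SE 0.070, adjusted p = 1.26e-10) and PLK1, a kinase of mitotic entry (2.17, SE 0.071, adjusted p = 7.2e-10), led this phase. PLK1 was at 46.5, 41.25 and 38.1 FPKM in CSCs and at 38.5, 44.5 and 42.1 FPKM in non-CSCs of HCC1937. Its SUM149PT levels were 10.04, 11.8 and 9.37 FPKM in CSCs and 8.31, 8.08 and 8.003 FPKM in non-CSCs. Thus PLK1 was several times higher in every HCC1937 library. CENPA, the histone of the centromere, showed the smallest difference (log2 difference 0.88), with 11.7 FPKM in its lowest HCC1937 library and 9.23 FPKM in its highest SUM149PT library. Of the other genes, 39 of 42 S phase genes and 48 of 49 G2/M genes were higher in HCC1937, WEE1 being the 1 G2/M gene that was lower (-0.68). In these other lists the order of the phases was reversed, with median log2 differences of 1.943 for S phase and 2.115 for G2/M genes. The regulators gave 13 higher and 7 lower of 24, beside 46.6% higher and 36% lower of all genes. Among them, CDKN1A was lower by a log2 difference of -2.40. CDKN2B was near 0 in SUM149PT and was tested only through its HCC1937 level, so the size of its difference depends on the added 0.1 FPKM.

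**Figure D4:**
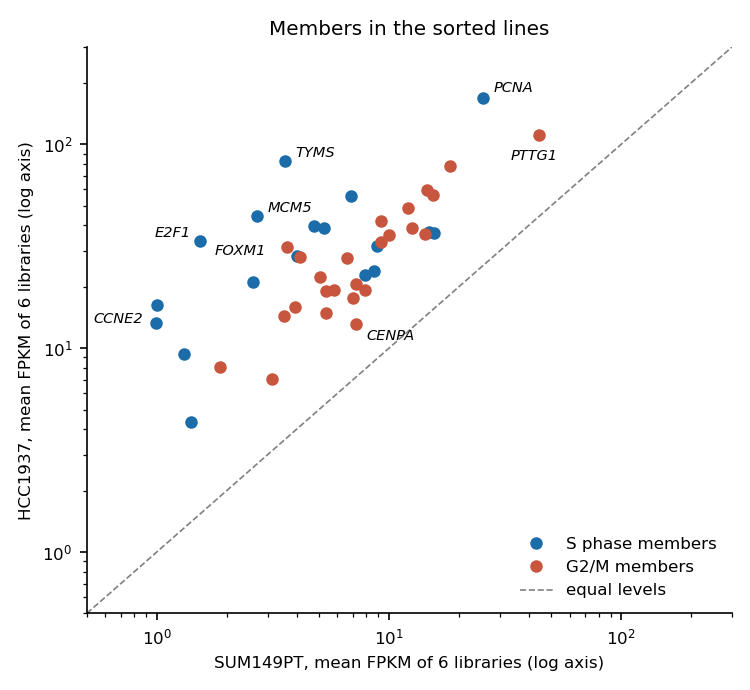
Mean level of each member over the 6 libraries of HCC1937 (y axis) and of SUM149PT (x axis), in FPKM on log axes, with S phase members in blue, G2/M members in red and equal levels dashed. Every gene lies above the dashed line, and the S phase genes TYMS and E2F1 lie furthest from it.

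In SUM159PT, most S phase members were higher than in SUM149PT CSCs, and G2/M members went both ways. Against SUM149PT CSCs, 12 of the 18 S phase members were higher, 3 lower and 3 not called (31.5% of 14976 genes were higher and 55.5% lower). Of the 25 G2/M members, 8 were higher, 16 lower and 1, CCNB2, not called. The medians were 1.83 for S phase members and -0.76 for G2/M members, where that of all genes was -0.76, so the G2/M members as a group stood where all genes did. The SUM159PT libraries differ from the sorted ones in the whole distribution: their FPKM values sum to 634746 to 652082 against 291276 to 366532, and 8534 to 8670 genes exceed 1 FPKM against 11249 to 11997.

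E2F1 was at 26.9, 25.6 and 27.2 FPKM in SUM159PT, and CDT1 was at 158.4, 147.4 and 152.4 FPKM. Both were far above SUM149PT CSCs, where E2F1 was under 1 FPKM and CDT1 at 7.20, 7.91 and 6.47 FPKM (log2 difference 5.12, adjusted p = 2.1e-07, and 4.39, adjusted p = 2.22e-07). MCM5 was at 58.8, 56.0 and 55.7 FPKM in SUM159PT and at 2.55, 2.85 and 3.26 FPKM in SUM149PT CSCs. It was high in all SUM159PT libraries (log2 difference 4.26, adjusted p = 2.84e-07). The S phase members that were lower were CCNE2, RRM1 and MCM6, with log2 differences of -1.97, -1.62 and -1.09.

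In G2/M, CENPE, the kinetochore motor, was at 0.0575, 0.0859 and 0.0926 FPKM in SUM159PT and at 2.69, 2.57 and 2.38 FPKM in SUM149PT CSCs. It was close to nothing in SUM159PT (log2 difference -3.89, adjusted p = 3.51e-07). Its SUM159PT mean of 0.0787 FPKM is under the minimum of 0.1, so CENPE was tested only through the other group and the size of its difference depends on the added 0.1 FPKM. CENPF was at 0.195, 0.232 and 0.392 FPKM in SUM159PT and at 5.34, 4.51 and 5.07 FPKM in SUM149PT CSCs. KIF23, a motor of cytokinesis, was at 0.622, 0.452 and 0.745 FPKM in SUM159PT and at 8.41, 8.95 and 8.77 FPKM in SUM149PT CSCs. Both were low in SUM159PT without overlap (log2 difference -3.80, adjusted p = 4.11e-06, and -3.66, adjusted p = 1.81e-06). Other mitotic genes went the other way, namely BIRC5 (2.83), FOXM1 (2.81), PLK1 (2.10), CDC20 (2.06) and AURKB (1.90). BIRC5 was at 46.2, 41.3 and 46.3 FPKM in SUM159PT and at 5.47, 6.63 and 6.45 FPKM in SUM149PT CSCs. In SUM159PT, MKI67 was at 1.03, 1.27 and 1.90 FPKM and TOP2A at 1.76, 1.69 and 2.86 FPKM, below every library of the sorted lines, while BIRC5 was above all of them.

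The direction of a member in SUM159PT went with the GC content of its transcripts. Among the 43 members, the rho of the log2 difference from SUM149PT CSCs with GC content was 0.903 (0.858 in the 18 S phase members and 0.886 in the 25 G2/M members), beside 0.605 over 12700 genes. The S phase members have a median GC content of 51.4% and range from CCNE2 at 37.2% to CDT1 at 65.99%, and the G2/M members have a median of 46.1% and range from CENPE at 36.4% to CDC20 at 56.6%. Of the 22 members at or over the median of all 43 (47.27%), 20 were higher and 2 lower, and of the 21 under it, 0 were higher and 17 lower. With the trend over all genes removed, the S phase members gave 17 higher and 0 lower and the G2/M members 16 higher and 5 lower, and the G2/M median became 1.06. Of the 12700 genes in that setting, 5408 were higher and 5405 lower. CENPE, CENPF and KIF23 stayed lower, with log2 differences of at least 0.96 in size in every setting (for CENPE, -5.27 to -0.96). The G2/M median was 0.01 with upper quartile scaling, which brought the median of all genes to -0.03 and the share of calls that were higher from 36.2% to 49.1%. TPM scaling brought these to -1.72 and 17.2%, with 5 higher and 19 lower among the G2/M members. Whether base composition, the preparation of the libraries or the line set these levels was not tested.

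**Figure D5:**
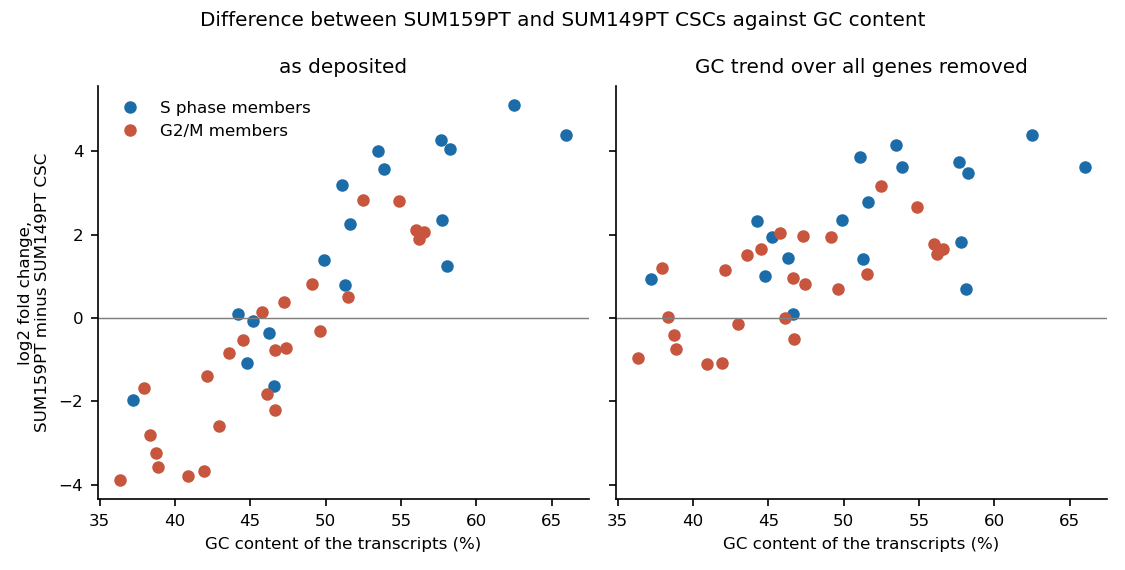
Log2 fold change of each member, SUM159PT minus SUM149PT CSCs (y axis), against the GC content of its transcripts in percent (x axis), as deposited (left) and with the GC trend over all genes removed (right); S phase members are blue and G2/M members red. Members of both phases lie along 1 rising band on the left, and most lie above 0 on the right.

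Against HCC1937 CSCs, most members of both phases were lower in SUM159PT as deposited, but for S phase this depended on the processing. Of the 18 S phase members, 4 were higher and 13 lower, and of the 25 G2/M members, 1 was higher and 20 lower (27.5% of 15515 genes were higher and 57.9% lower). The medians were -1.24 and -2.60, beside -0.97 for all genes. With upper quartile scaling the S phase members gave 8 higher and 9 lower, beside 6518 and 6861 of 15469 genes. With the trend on transcript length removed they gave 8 higher and 7 lower (median 0.04), beside 5786 and 5698 of 13051 genes. This comparison shares the SUM159PT libraries with the one before it.

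The S phase genes furthest below HCC1937 CSCs were CCNE2, MCM6 and CDC6. CCNE2 was at 0.163, 0.199 and 0.126 FPKM in SUM159PT and at 11.8, 14.2 and 13.7 FPKM in HCC1937 CSCs. MCM6 was at 1.74, 2.03 and 1.95 FPKM in SUM159PT and at 27.4, 26.2 and 27.5 FPKM in HCC1937 CSCs. CDC6 was at 1.76, 2.28 and 2.49 FPKM in SUM159PT and at 23.5, 21.7 and 22.6 FPKM in HCC1937 CSCs. All 3 were low in SUM159PT without overlap (log2 difference -5.67, -3.76 and -3.33, adjusted p = 2.16e-07, 2.21e-07 and 1.29e-06). The 4 S phase members that were higher were CDT1 (2.81), MCM7 (1.26), MCM5 (0.39) and MCM2 (0.28), and E2F2 was not called (-0.04). In G2/M, CENPE (-5.54, adjusted p = 1.89e-07), CENPF (-5.52, adjusted p = 8.14e-07) and KIF23 (-4.84, adjusted p = 6.73e-07) were again lowest, with the same limit on the size and rank of CENPE (-6.85 to -2.40 in other settings), and BIRC5 was the 1 gene that was higher (0.87). The rho with GC content was 0.856 over the 43 members and 0.530 over 13051 genes. With that trend removed, the S phase members gave 5 higher and 9 lower and the G2/M members 6 higher and 14 lower. Of the 13051 genes in that setting, 5494 were higher and 5501 lower. Upper quartile scaling brought the median of all genes to -0.08 and the share of calls that were higher from 32.2% to 48.7%, and the G2/M members to 6 higher and 17 lower, whereas TPM scaling brought the median to -1.83 and the share to 16.4%.

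The MCM2 to MCM7 genes, whose products form a ring with 1 copy of each, show how uneven SUM159PT was. Between the highest and the lowest group mean of the 6 genes the ratio was 2.10 in HCC1937 CSCs and 1.85 in its non-CSCs. It was 5.66 in SUM149PT CSCs and 5.90 in its non-CSCs. In SUM159PT the ratio was 43.55, from MCM6 at 1.91 FPKM to MCM7 at 83.05 FPKM. MCM2 was at 70.2, 67.75 and 68.7 FPKM and MCM4 at 8.95, 9.15 and 8.06 FPKM in the same libraries. These are levels as deposited, and the GC content was 44.8% for MCM6 and 57.76% for MCM7. Their log2 differences from SUM149PT CSCs were -1.09 and 2.34 as deposited. With the GC trend removed these were 1.01 and 1.82, which lie closer together.

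Further lists were also counted in SUM159PT. Against SUM149PT CSCs, where 31.5% of all genes were higher and 55.5% lower, 25 of 42 other S phase genes were higher and 13 lower, and 17 of 48 other G2/M genes were higher and 30 lower. Against HCC1937 CSCs, where the shares of all genes were 27.5% and 57.9%, these counts were 5 and 33 of 42, and 3 and 42 of 49. The regulators gave 6 higher and 16 lower of 23 against SUM149PT CSCs and 7 higher and 16 lower of 24 against HCC1937 CSCs. RB1 was at 0.579, 0.600 and 0.693 FPKM in SUM159PT and E2F7 at 0.369, 0.403 and 0.408 FPKM, both lower than in any sorted library. RBL2 was at 1.76, 2.11 and 2.44 FPKM and CDKN1A at 46.2, 44.45 and 51.6 FPKM. Epithelial markers summed to 276.3 to 291.7 FPKM in SUM159PT, nearly all of it KRT18 (153.1 FPKM) and KRT8 (132 FPKM), with 3 of 10 below 0.1 FPKM. Yet 8 of 10 were lower and 2 higher than in SUM149PT CSCs, and 10 of 10 lower than in HCC1937 CSCs. Mesenchymal markers, led by VIM, summed to 1326 to 1358 FPKM, with 9 of 10 lower and 1 higher than in SUM149PT CSCs and 6 of 9 lower and 1 higher than in HCC1937 CSCs. Stress response genes summed to 519.4 to 586.3 FPKM and histone genes to 231.9 to 281.8 FPKM. In the histone sum, HIST3H2A (131.4 FPKM) and HIST1H1C (79.6 FPKM) had the largest means. Of the histone genes, 5 were higher and 9 lower of 45 against SUM149PT CSCs, and 2 and 27 of 53 against HCC1937 CSCs. Stress response genes gave 0 higher and 11 lower of 12, and 1 and 9 of 11, in the same comparisons.

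Some members lie where another gene is also read. Of the 43, 16 share exon sequence with another annotated gene, 14 of them with a protein-coding one, and the strand of the libraries is not stated, so reads of opposite genes there cannot be told apart. CCNE2 overlaps INTS8, which had means of 6.92 and 9.96 FPKM in SUM149PT CSCs and non-CSCs, above CCNE2 in both, and 0.706 FPKM in SUM159PT. TYMS overlaps ENOSF1, at 0.929 and 1.18 FPKM in SUM149PT CSCs and non-CSCs and 3.49 and 3.92 FPKM in those of HCC1937. MCM2 overlaps TPRA1, at 37.9 and 53.9 FPKM in SUM149PT CSCs and non-CSCs, 24.2 and 21.0 FPKM in those of HCC1937 and 98.7 FPKM in SUM159PT. CENPA overlaps SLC35F6 on the same strand, at 22.1 and 12.3 FPKM in SUM149PT CSCs and non-CSCs, above CENPA and higher in the same fraction. GINS2 overlaps GSE1, at 12.2 and 6.95 FPKM in SUM149PT CSCs and non-CSCs, also above GINS2. PTTG2, a near copy of PTTG1 that carries no introns, was at 0.0279 FPKM in SUM149PT CSCs and at or near 0 in the other groups.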

How the data were processed

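The deposited table holds FPKM of 33158 gene symbols in 15 libraries, and all columns were matched to a library by line, fraction and replicate number. The submitters' processing notes name Bowtie2 and GRCh38; the quantification tool is not given in the sources used here. Read counts were not used here, so depth is unknown and precision rests on 3 libraries per group. After addition of 0.1 and log2 transformation, groups were compared in R 4.3.3 by limma 3.58.1 (lmFit, then eBayes, both with default settings), for genes that averaged 0.1 FPKM or more over the libraries fitted, with Benjamini-Hochberg adjustment over all genes tested. Calls were made at an adjusted p of 0.05 or less; "rose" and "fell" refer to such calls. Tables, motif searches and plots were made with Python 3.11.15, pandas 2.3.3 and matplotlib 3.10.9, and the code was tested on simulated data. GC content and transcript length came from GENCODE release 29 and promoters from RefSeq.

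The members and lists were chosen with earlier results of these data known. Statistics are given for the 4 members of each phase with the largest fold change in each sorted line plus MKI67, TOP2A, CDK1, CCNB1, PCNA, MCM2, E2F1 and CCNE2. They are also given for the 3 members of each phase with the largest value in the other comparisons, the 3 genes with the largest change in each sorted line from the other S phase, other G2/M and regulator lists, the listed inhibitors of cyclin-dependent kinases and the retinoblastoma family; CDKN2A was not in the lists and was not analysed here. Any other gene was named after its values were seen. The further lists were other S phase genes, other G2/M genes, regulators, replication-dependent histones, epithelial, mesenchymal and sort markers, and stress response genes; mitochondrially encoded genes are not in the table and were not analysed here. Alternatives were pseudocounts of 0.01 and 1, no expression minimum or a minimum of 1, scaling by upper quartile, by quantile normalization or to TPM, eBayes with a trend, eBayes both robust and with a trend, all 15 libraries in 1 fit, a replicate block, the cutoffs read from the paper, a fold change limit of 1 on the log2 scale and leaving out each library. Removal of the trend on GC content or on transcript length was added after the data were seen; it tests only genes matched by symbol, so fewer genes enter the adjustment.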

Additional observations from a re-analysis of the deposited data

Results flagged for a closer look

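The results below differ between the sorted lines: the effect of the CSC fraction in SUM149PT minus that in HCC1937 passed the interaction test in limma (largest adjusted p 0.0406, for BUB1B). Each value is that difference on the log2 scale.

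Among the S phase members, the difference was -3.25 for E2F2, -1.80 for E2F1, -1.26 for MCM2, -0.87 for MCM4, -0.74 for RRM2, -0.71 for TYMS, -0.65 for MCM3 and -0.64 for PCNA. It was 0.25 for MCM6 and 0.60 for RRM1. RRM2 fell in SUM149PT CSCs and was called higher in HCC1937 CSCs (adjusted p = 0.0472, lost in 5 of 6 fits with 1 library left out and in 3 of 13 other settings), and MCM6 was called in neither line alone.

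Among the G2/M members, it was -1.34 for FOXM1, -1.20 for AURKA, -0.79 for AURKB and -0.40 for NUSAP1. It was 0.26 for KIF20A, 0.31 for BUB1B, 0.34 for TPX2, 0.50 for BUB1, 0.53 for MKI67, 0.61 for CENPA, 0.63 for CENPF, 0.67 for KIF23 and 0.80 for CDK1. The largest positive values were 0.83 for CCNB1, 0.99 for CENPE, 1.10 for CCNB2, 1.13 for TOP2A, 1.15 for TTK and 1.31 for PTTG1. FOXM1 fell in SUM149PT CSCs and was called higher in HCC1937 CSCs (adjusted p = 0.0118, lost in 1 of 13 other settings).

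Among other S phase genes, the difference was -1.53 for GINS4, -1.49 for POLD3, -1.43 for POLA2, -1.35 for POLE2 and 0.74 for POLD2. Among other G2/M genes, it was -1.40 for CENPU, -0.99 for CDC25B, -0.92 for ESPL1, 1.002 for KIF15 and 1.59 for WEE1. CDC25B and WEE1 were called in opposite directions in the lines, but the HCC1937 call of CDC25B was lost in 2 of 6 fits with 1 library left out and in 1 of 13 other settings. The HCC1937 call of WEE1 was not examined in those fits.

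Among the regulators, it was -2.53 for E2F8, -1.26 for RBL1, -0.41 for CDKN1B, 0.53 for CDKN1A, 0.80 for RBL2, 0.85 for CDKN2C, 1.47 for RB1 and 1.97 for E2F7. The E2F8 value restates its SUM149PT effect (-2.52), since E2F8 was at a mean of 0.0375 and 0.0361 FPKM in the HCC1937 fractions, below the level tested there, where the added 0.1 FPKM holds its effect near 0. RBL2 was called higher in SUM149PT CSCs (adjusted p = 0.0232, lost in 4 of 6 fits with 1 library left out and in 1 of 13 other settings) and fell in HCC1937 CSCs.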

How the results depend on the processing

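For single named genes, 1019 values under other settings kept their direction and their side of the threshold, 12 lost the call, 45 gained one and 12 reversed. With 1 library left out, 535 were kept, 31 lost the call, 1 gained one and 9 reversed. All reversals were of small differences, and the cause was not tested. Depth is unknown, so what it limits cannot be given. Within a group, libraries correlated at 0.972 to 0.9895 over genes. The counts for HCC1937 minus SUM149PT kept their side in every setting.

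In SUM149PT, CSCs minus non-CSCs, the 1 S phase member higher became 2 with upper quartile scaling, 5 with quantile normalization, 4 with the GC trend removed, 2 with the length trend removed, and 0 at both stricter cutoffs, those of the paper and an added log2 fold change limit of 1; leaving out 1 library gave 1 to 2. The 9 S phase members lower became 3 at the cutoffs of the paper and 3 at the fold change limit. The 19 G2/M members higher became 3 and 5, and the 4 lower became 1 and 1. At the cutoffs of the paper, 3292 of all 16037 genes passed in either direction (20.5%). For the fold change limit the share of all genes was not counted, here or in the comparisons below. CCNE2 reversed to 0.34 with quantile normalization and 0.10 without non-CSC replicate 2 (left-out fits from -0.287 to 0.10), and CDKN1A to -0.025 without CSC replicate 2 (left-out fits up to 0.0872).

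In HCC1937, the 1 S phase member higher became 0 with a pseudocount of 0.01, 0 with no expression minimum, 2 with upper quartile, quantile and TPM scaling, 2 with the eBayes trend and 2 with robust eBayes and a trend, 4 with the GC trend removed, 3 with the length trend removed, and 0 at both stricter cutoffs; leaving out 1 library gave 0 to 1. The 1 G2/M member higher became 2 with upper quartile scaling, 4 with quantile normalization, 4 with TPM scaling, 3 with the GC trend removed, 4 with the length trend removed and 0 at both stricter cutoffs. At the cutoffs of the paper, 0 of all 15582 genes passed. CCNB1 reversed to 0.032 with upper quartile scaling, 0.047 with quantile normalization, 0.098 with TPM scaling, 0.039 with the length trend removed, 0.017 without CSC replicate 2 and 0.025 without non-CSC replicate 2 (left-out fits from -0.0966). CCNE2 reversed to 0.032, 0.036, 0.098 and 0.00071 under the same 4 settings, to 0.053 without CSC replicate 1 and 0.011 without non-CSC replicate 3 (left-out fits from -0.0815). PCNA reversed to 0.011 with quantile normalization and 0.042 with TPM scaling. TOP2A reversed to -0.067 with the GC trend removed, -0.053 without CSC replicate 3 and -0.041 without non-CSC replicate 1 (left-out fits up to 0.0298), and MCM2 to -0.026 without CSC replicate 1 (left-out fits up to 0.0945).

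For the difference of the CSC effect, the 2 S phase members higher became 4 with quantile normalization, 1 with TPM scaling, 4 with the GC trend removed, 4 with the length trend removed and 0 at both stricter cutoffs; leaving out 1 library gave 1 to 3. The 8 S phase members lower became 3 at both stricter cutoffs, the 15 G2/M members higher became 4 and the 4 lower became 2. At the cutoffs of the paper, 2922 of all 16451 genes passed in either direction.

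For SUM159PT minus SUM149PT CSCs, the 3 S phase members lower became 7 with TPM scaling and 0 with the GC trend removed. The 8 G2/M members higher became 5 with TPM scaling, 16 with the GC trend removed and 5 at both stricter cutoffs, and the 16 lower became 5 with the GC trend removed, 9 with the length trend removed and 10 at the cutoffs of the paper. At those cutoffs, 8394 of all 14976 genes passed in either direction.

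For SUM159PT minus HCC1937 CSCs, the 4 S phase members higher became 8 with upper quartile scaling, 2 with TPM scaling, 8 with the length trend removed and 2 at both stricter cutoffs, and the 13 lower became 7 with the length trend removed. The 1 G2/M member higher became 2 with a pseudocount of 1, 6 with upper quartile scaling, 3 with quantile normalization, 0 with TPM scaling, 2 with robust eBayes and a trend, 6 with the GC trend removed, 5 with the length trend removed and 0 at both stricter cutoffs; leaving out 1 library gave 1 to 3. The cause of these moves was not tested. At the cutoffs of the paper, 8335 of all 15515 genes passed in either direction.

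Libraries of the fractions share replicate numbers, and 3 libraries per group cannot settle whether the numbers pair them. Same-number deviations correlated at 0.136, 0.029 and 0.120 in SUM149PT and at -0.159, -0.050 and -0.036 in HCC1937. In SUM149PT, CSC libraries 1 and 3 correlated best with their own number (highest other value 0.056 and -0.033), and library 2 did not. In HCC1937 no CSC library did. The main fits treat the libraries as unpaired. With a replicate block, 5094 genes were higher and 6398 lower in SUM149PT, and 1161 and 1905 in HCC1937. In HCC1937 the block took the S phase members higher from 1 to 0 and the G2/M members higher from 1 to 0 (FOXM1, adjusted p = 0.0565). The block also took the adjusted p over 0.05 for RRM2 (0.106), RFC3 (0.0878), CDC25B (0.0726), E2F7 (0.0717) and RB1 (0.0732) in HCC1937 and for RBL2 (0.0739) in SUM149PT.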
